A study of Mus musculus with 9 samples.

Results

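The 3 libraries from mice given anti-CTLA-4 were set directly against the 3 libraries from mice given anti-PD-1. These are 6 of the 9 libraries of the series; the other 3 come from control mice and are given only as reference levels. All 9 hold RNA of CD4 T cells positive for ICOS, sorted out of tumours of MC38, a mouse colon carcinoma line, that had grown for 12 days in C57BL/6J mice. Each library came from 1 mouse. Antibody clones, doses and treatment days, what the controls received and how many cells were sorted are not stated in the labels. The comparison was described mainly over the 1137 genes, of 45808 in the table, that reached at least 5 CPM in all 6 libraries. CPM is the count of a gene scaled to a total of 1000000 gene counts in its library. At that limit, the genes just inside were Aff4, whose lowest value was 5.02 CPM, and Cd52, at 5.03 CPM. Just outside were Xrn1, whose lowest value was 4.99 CPM, and Crim1, at 4.98 CPM.

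CTLA-4 and PD-1 are inhibitory receptors of T cells. CTLA-4 takes the B7 ligands on antigen-presenting cells away from the costimulatory receptor CD28 and is made in large amounts by regulatory T cells. PD-1 binds PD-L1 and PD-L2 on tumour and myeloid cells and dampens signalling from the T cell receptor and CD28. ICOS, a relative of CD28, marks activated CD4 T cells, both effector cells and regulatory cells that carry Foxp3. The title of the series concerns different cellular mechanisms of the 2 blockades, and this comparison asks how the sorted cells of the 2 treatments differ from each other.

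Genes took 25530333 to 35566460 counts per library in the 6 libraries. The number of genes at 5 CPM or more was 5382, 2662 and 5124 in anti-CTLA-4 replicates 1 to 3 and 5496, 4209 and 5878 in anti-PD-1 replicates 1 to 3. Anti-CTLA-4 replicate 2 stood apart. Its Spearman correlation with the other 5 libraries over the 1137 genes was 0.28 to 0.33, against 0.56 to 0.69 for every pair among those 5, and it held the highest or lowest of the 6 values for 694 of the 1137 genes, more than any other library. The tests, the counts of genes without overlap and the gene lists were therefore also computed without it; the promoter shares and the positions of the controls were not. The median gene varied 4.21-fold between the highest and lowest anti-CTLA-4 library, 1.71-fold without replicate 2, and 2.74-fold among the anti-PD-1 libraries.

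The sort markers were present. Cd4 was at 440, 24.5 and 308 CPM in anti-CTLA-4 replicates 1 to 3 and at 808, 616 and 719 CPM in the anti-PD-1 replicates. Of 6 CD8 T cell markers, 4 had no count in any of the 6 libraries, Cd8a among them. Cd8b1 was at 125 CPM in anti-PD-1 replicate 3 and at most 0.118 CPM in the other 5. Klrc1 was at 77.6 CPM in anti-CTLA-4 replicate 3 and at 4.38 and 20.8 CPM in anti-PD-1 replicates 2 and 3. In anti-CTLA-4 replicate 2, Cd3e, a chain of the T cell receptor complex, was at 0.590 CPM, while the other 5 libraries held 447.2 to 706.8 CPM, although the receptor constant gene Trac was at 632 CPM there. The summed CPM of all 17 T cell markers was 9736, 3889 and 8319 with anti-CTLA-4 and 11672, 10270 and 11656 with anti-PD-1, so the groups did not overlap. Cd28 (564 to 3461 against 3262 to 3843 CPM) and Icos (507 to 1986 against 2547 to 2876 CPM) made up much of these sums. The separation of the sums is lost when Icos alone is left out and holds when Cd28 alone is left out. The cells were sorted on ICOS. The 20 macrophage and monocyte markers summed to 1849, 6417 and 1492 CPM against 947, 1686 and 1220 CPM. The 14 fibroblast markers summed to 714, 5089 and 1234 CPM against 827, 997 and 585 CPM, and 4 of the 14 had no count in any of the 6. This list includes Thy1, which is also counted among the T cell markers. Thy1 was at 295, 134 and 355 CPM against 379, 0.453 and 331 CPM. The 11 neutrophil markers summed to 116, 1624 and 7.96 CPM against 0.196, 0.242 and 41.4 CPM; 4 had no count in any of the 6, S100a9 among them. Replicate 2 was highest in all 3 of these lists, and the part of these markers in the results was not tested. In sorted bulk samples, fewer cells of a type and less RNA per cell cannot be told apart.

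**Figure D1:**
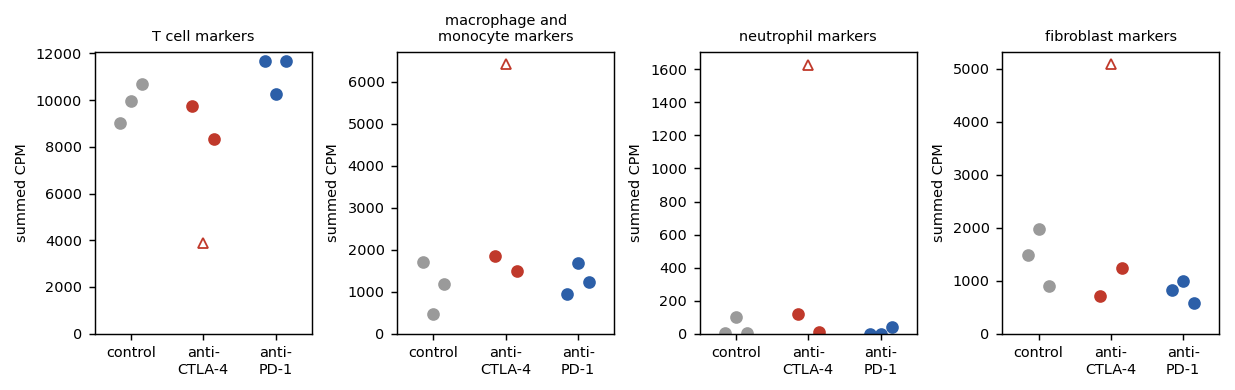
Summed CPM of 4 marker lists (vertical axes, linear from 0) in each library, with controls in grey, anti-CTLA-4 in red and anti-PD-1 in blue; each point is 1 mouse and the open triangle is anti-CTLA-4 replicate 2. That library has the lowest T cell sum, 3889 CPM, and the highest macrophage and monocyte, neutrophil and fibroblast sums.

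Few genes separated the 2 treatments by test. Of 5795 genes tested by edgeR's quasi-likelihood test, 30 rose with anti-CTLA-4 relative to anti-PD-1 (0.518% of genes tested) and 1 fell (0.0173%), at a Benjamini-Hochberg adjusted p under 0.05. Among the 1137 genes detected throughout, 2 rose (0.176%) and 0 fell. At an unadjusted p under 0.05 those 1137 genes gave 73 higher and 2 lower, and all tested genes 294 higher and 115 lower. DESeq2 called 247 higher and 446 lower over all the genes it tested, but 0 of the 1137 in either direction. Anti-CTLA-4 replicate 2 was the highest of the 6 libraries for all 30 genes that rose, and 0 of the 30 were called when it was left out.

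The 2 genes detected throughout that rose were Psap and Col6a2. Psap, the precursor of the lysosomal saposins, was at 163, 4805 and 863 CPM under anti-CTLA-4 and 370, 457 and 664 CPM under anti-PD-1 (log2 fold change 3.17 ± 0.76 SE, edgeR adjusted p = 0.0142, n = 3 each). Col6a2, a collagen VI chain typical of fibroblasts, was at 443, 3010 and 772 CPM against 75.4, 503 and 7.66 CPM (3.69 ± 0.95, edgeR adjusted p = 0.036). In both genes the groups overlapped and replicate 2 alone was far above the rest. Without it, the Psap difference in mean log2 CPM went from 0.86 to -0.36 and that of Col6a2 from 3.93 to 3.14. Of the other called genes, the 5 with the smallest p were Xylt2, Colgalt1, Abi3bp, Trp53inp2 and Fendrr, at 1085 to 1586 CPM in replicate 2 and at most 96.3 CPM in every other library. For Colgalt1 and Fendrr the other 2 anti-CTLA-4 mice were still above every anti-PD-1 mouse, and for the other 3 genes the groups overlapped.

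The gene that fell was Nkg7, a membrane protein of cytotoxic granules. It was at 0.131, 0.141 and 0.214 CPM under anti-CTLA-4 and 253, 565 and 138 CPM under anti-PD-1, a ratio of the group means of 1966 (edgeR adjusted p = 0.0495). The groups were far apart, and replicate 2 was among the other 2 anti-CTLA-4 values; without it the adjusted p was 9.00e-07. Controls, at 0.0482, 63.5 and 19.96 CPM, were all below the anti-PD-1 values. Over the alternatives run, the adjusted p of Nkg7 ranged from 9.00e-07 to 0.678 and was under 0.05 in 3 of 15.

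Because so few genes passed the test, the genes whose 2 groups did not overlap on CPM were also counted. Among the 1137 genes, 48 had every anti-CTLA-4 value above every anti-PD-1 value (4.22%) and 67 had every one below (5.89%). Over all tested genes the counts were 173 (2.99%) and 432 (7.45%). With 3 libraries in each group, random order of the values alone would separate a similar share of the 1137 genes. Lack of overlap therefore describes a gene and does not show that it differed between the treatments. Of the 48 and 67, 33 and 45 also did not overlap once TMM factors were applied. Among the genes described below, Ccr2, Il21r, Ikzf2, Rbm39, Stat3, Eif4a1 and Hnrnpm overlapped with TMM factors. So did Ddit4, Odc1, Runx2, mt-Rnr1 and mt-Rnr2, and "without overlap" refers to CPM. Replicate 2 was the most extreme library for 27 of the 48 and 45 of the 67. The nearest libraries of the 2 groups were at least 1.5-fold apart in 6 and 17.

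Scaling shifts the fitted changes as a whole. The median fitted log2 fold change of the 1137 genes was 0.56 with TMM factors, 0.04 with library totals, 2.18 with DESeq2 and 2.71 with RLE factors, while the median difference in mean log2 CPM was -0.06. The size of a gene's difference is therefore given below as anti-CTLA-4 minus anti-PD-1 in mean log2 CPM. As fitted, 783 of the 1137 genes were higher and 354 lower with TMM, against 542 and 595 on CPM. As fitted, only 65 of the 67 were below 0 with TMM, 31 with DESeq2 and 20 with RLE. Relative to the median gene, all 48 and all 67 kept their direction under each of the 5 scalings. These genes were picked on CPM and scaling shifts all genes by a similar amount, so that outcome was close to fixed in advance.

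**Figure D2:**
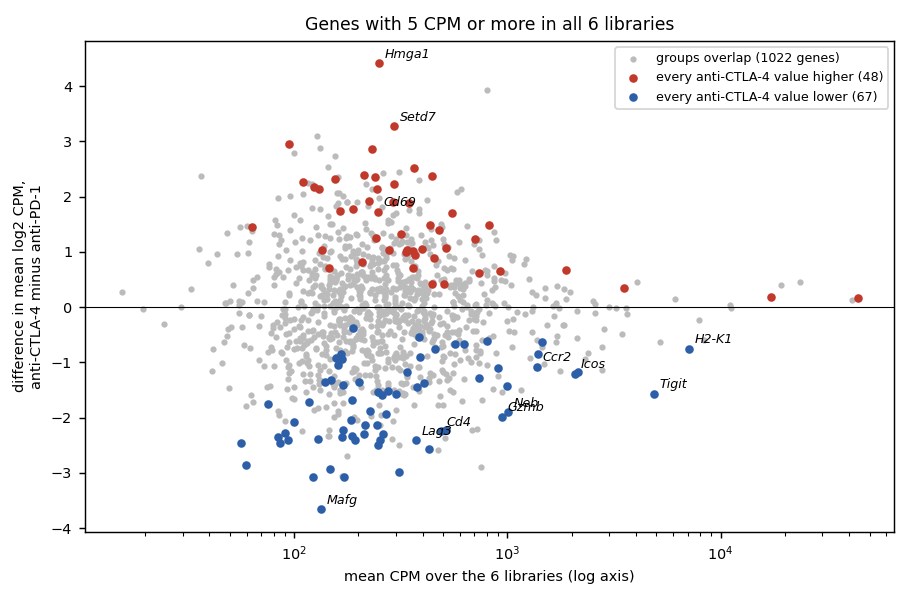
Difference in mean log2 CPM (anti-CTLA-4 minus anti-PD-1, vertical axis) against mean CPM over the 6 libraries (horizontal, log axis) for the 1137 genes, 1 point each. Red and blue mark the 48 and 67 genes whose groups do not overlap on CPM, grey the others. Tigit and H2-K1 are the labelled blue genes with the highest mean CPM, and Hmga1, at 4.42, is the highest red point.

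Among inhibitory receptors, Tigit and Lag3 were lower in anti-CTLA-4 than in anti-PD-1 mice in every pairing of libraries. Tigit, which competes for the ligands of the costimulator CD226 (ENSMUSG00000071552, GRCm38 chromosome 16, 43648867 to 43664146), was at 4296, 1173 and 2639 CPM under anti-CTLA-4 and 6581, 6389 and 8247 CPM under anti-PD-1. All anti-PD-1 libraries were thus above all anti-CTLA-4 libraries, and the anti-PD-1 mean was 2.62 times as high. The difference was -1.57, and -1.06 without replicate 2. Controls were at 4530, 5337 and 6352 CPM, between the 2 groups. Tigit was not called by the main test (fitted log2 fold change -1.16 ± 0.52 SE, edgeR adjusted p = 0.580), but it was called lower in 3 of 16 alternatives: with library totals (edgeR adjusted p = 0.0145), with TMM factors taken over the 1137 genes (edgeR adjusted p = 0.0120) and with limma voom and quality weights (8.88e-16). Over all 16 the adjusted p reached 0.999, and the fitted direction turned with RLE factors (0.54) and with DESeq2 (0.07). Without replicate 2 it was 0.207 in edgeR, and among the alternatives of that 5-library fit it was called with library totals (edgeR adjusted p = 0.0134) and with no filter (edgeR adjusted p = 0.00147).

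Lag3, a receptor for MHC class II (ENSMUSG00000030124, chromosome 6, 124904361 to 124911705), was at 152, 53.9 and 143 CPM under anti-CTLA-4 and 922, 266 and 707 CPM under anti-PD-1. The difference was -2.41, and -1.92 without replicate 2, but the 3 anti-PD-1 mice spanned a wide range and the edgeR adjusted p was 0.9999. Controls, at 172, 527 and 751 CPM, were all above the anti-CTLA-4 values, and 2 of the 3 were within those of anti-PD-1. Ctla4 itself was at 641, 499 and 882 CPM against 590, 653 and 464 CPM, with overlapping groups. Pdcd1, which encodes PD-1, was at 0.0985, 262 and 0.0612 CPM against 164, 24.4 and 116 CPM, and so was high in replicate 2 and near 0 in the other 2 anti-CTLA-4 mice. Of 14 inhibitory receptors listed, 3 were detected throughout. Of them, 2 were without overlap on the lower side, where 67 of all 1137 genes were (5.89%), and 0 were called. Without replicate 2, 6 were detected in all 5 libraries, 4 with a lower mean and 2 with a higher one. Tigit and Lag3 were lower without overlap and Cd5 was higher without overlap. Over all 1962 genes the shares were 10.4% lower and 9.84% higher.

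The costimulatory receptors were also mostly lower with anti-CTLA-4. Icos was at 1986, 507 and 1706 CPM against 2547, 2876 and 2869 CPM, with no overlap and a difference of -1.20, or -0.58 without replicate 2 (edgeR adjusted p = 0.9999). Controls were at 1851, 2042 and 2866 CPM. Cells were sorted on ICOS, and the part of the gate in this difference was not tested. Cd28, whose signal CTLA-4 limits, was at 3461, 564 and 2043 CPM against 3410, 3843 and 3262 CPM, and only replicate 2 was far below the rest. Of the 7 members of this list detected throughout, 6 had a lower mean, against 595 of all 1137 genes (52.3%). Icos alone was without overlap, 0 were called, and the median difference was -1.14. Without replicate 2, 6 of 8 had a lower mean, against 945 of 1962 genes, and the median was -0.45.

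Genes of T cell receptor signalling were mostly on the same side. Of 8 detected members, 6 had a lower mean with anti-CTLA-4 and 3 did not overlap (Cd4, Cd247 and Vav1), with a median difference of -0.88; 0 were called. Of all 1137 genes, 595 had a lower mean (52.3%) and 67 were lower without overlap (5.89%), and the median was -0.06. Cd247, the zeta chain that carries the receptor's signal inside the cell, was at 85.5, 36.7 and 13.3 CPM against 148, 97.2 and 219 CPM. Vav1, an exchange factor downstream of the receptor, was at 20.7, 18.8 and 112 CPM against 142, 363 and 121 CPM. The highest Vav1 value with anti-CTLA-4 and the lowest with anti-PD-1 almost met. For Cd4 the difference was -2.25 with replicate 2 and -0.95 without it. The T cell marker sum, which itself includes Cd4 and Cd247, was also lower with anti-CTLA-4, and its part in these genes was not tested.

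The detected cytotoxic granule genes were lower as well. Gzmb, the protease granzyme B (ENSMUSG00000015437, chromosome 14, 56258838 to 56262260), was at 742, 153 and 405 CPM under anti-CTLA-4 and 1529, 1045 and 1770 CPM under anti-PD-1. The anti-PD-1 mean was 3.34 times as high, and 2.52 times without replicate 2. Controls, at 318, 736 and 1164 CPM, spanned the gap. The difference was -1.98 (edgeR adjusted p = 0.9999), and -1.37 without replicate 2 (0.879); limma voom on those 5 libraries called it (adjusted p = 0.00473). Srgn, the granule proteoglycan, was at 769, 248 and 782 CPM against 904, 1798 and 900 CPM. These 2 were the only members of the 14-gene list detected throughout, while Nkg7 was tested but not detected with anti-CTLA-4 above 1 CPM.

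Upstream sequences are shown for 4 of these genes, to set the genes that were lower with anti-CTLA-4 (Tigit, Gzmb and Nkg7) beside one that was higher (Cd44). Each runs 5′ to 3′ on the gene's strand from 250 bases before to 50 after the RefSeq start, build GRCm38.p6: chr16:43664135-43664434, minus strand, for Tigit; chr14:56262285-56262584, minus, for Gzmb; chr7:43436888-43437187, plus, for Nkg7; chr2:102901616-102901915, minus, for Cd44. Capitals mark matches on either strand to TGTGGT (RUNX), TGANTCA (AP-1) and GGAAA (NFAT), which do not overlap here.
Tigit: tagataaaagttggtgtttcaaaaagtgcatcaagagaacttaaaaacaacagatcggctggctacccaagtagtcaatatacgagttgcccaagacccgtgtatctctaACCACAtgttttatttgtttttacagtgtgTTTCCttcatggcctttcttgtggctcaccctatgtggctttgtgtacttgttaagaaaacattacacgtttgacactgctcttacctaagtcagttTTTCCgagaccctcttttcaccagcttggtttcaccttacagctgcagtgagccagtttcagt
Gzmb: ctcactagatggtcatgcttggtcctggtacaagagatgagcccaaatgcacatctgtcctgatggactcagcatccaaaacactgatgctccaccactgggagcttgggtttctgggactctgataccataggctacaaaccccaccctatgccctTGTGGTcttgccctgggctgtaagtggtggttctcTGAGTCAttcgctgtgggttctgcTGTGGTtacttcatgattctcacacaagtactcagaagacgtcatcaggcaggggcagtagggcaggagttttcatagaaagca
Nkg7: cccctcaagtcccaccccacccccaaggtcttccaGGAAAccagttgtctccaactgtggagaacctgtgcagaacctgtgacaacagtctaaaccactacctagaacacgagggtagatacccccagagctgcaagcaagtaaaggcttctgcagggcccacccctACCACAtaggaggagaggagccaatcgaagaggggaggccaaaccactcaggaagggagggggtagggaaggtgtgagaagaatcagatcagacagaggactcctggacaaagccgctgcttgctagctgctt
Cd44: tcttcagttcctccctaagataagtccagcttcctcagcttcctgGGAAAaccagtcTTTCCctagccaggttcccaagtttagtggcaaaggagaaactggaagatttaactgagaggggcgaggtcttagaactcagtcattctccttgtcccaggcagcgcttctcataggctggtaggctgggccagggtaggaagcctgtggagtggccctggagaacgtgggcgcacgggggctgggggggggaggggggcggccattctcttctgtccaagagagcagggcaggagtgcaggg
Tigit and Nkg7 hold 1 RUNX match each, Gzmb holds 2 and Cd44 holds 0. Over all 32851 RefSeq windows of 300 bases, 16.8% hold the RUNX letters, and so do 15.3% of the 851 of the 1137 genes that have a window. They were found in 13 of 46 windows of the genes lower without overlap (28.3%) and in 3 of 31 of those higher without overlap (9.68%). The AP-1 letters were in 2 of 46 and 0 of 31, against 7.81% of all windows, and the NFAT letters in 28 of 46 and 19 of 31, against 61.3%. A match describes letters in the window and shows no binding, and these shares were not tested.

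Regulatory T cell genes overlapped between the treatments, with Ikzf2 the exception among those detected throughout. Foxp3, the lineage factor, was at 3028, 898 and 2863 CPM against 3186, 2841 and 3901 CPM, and Il2ra, a chain of the high-affinity IL-2 receptor, at 5793, 2179 and 4853 CPM against 6727, 5288 and 6490 CPM. Both overlapped, and without replicate 2 their differences were -0.16 and -0.21. Ikzf2, which encodes Helios, did not overlap, at 1602, 719 and 1234 CPM against 1759, 1811 and 1637 CPM. Its highest anti-CTLA-4 value was close to the lowest anti-PD-1 value. Of the 7 members detected throughout, 4 had a lower mean, 3 a higher mean and 0 were called.

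Ccr2, the chemokine receptor for CCL2 on inflammatory cells, separated the groups on CPM with little spread inside either, but its groups overlapped once TMM factors were applied. It was at 963, 800 and 899 CPM with anti-CTLA-4 (mean 887 ± 82.3 SD, n = 3) and at 1853, 1652 and 2127 CPM under anti-PD-1 (1877 ± 238). The difference of -1.08 was nearly the same without replicate 2, -1.005, and the means differed 2.12-fold. The edgeR adjusted p was 0.9999, and 0.928 without replicate 2, where limma voom called the gene (adjusted p = 0.000438). The fitted log2 fold change was -0.56 with TMM over 6 libraries and turned to 1.72 with RLE and 1.17 with DESeq2 factors. Controls were at 1230, 611 and 1308 CPM, all below the anti-PD-1 values and on both sides of the anti-CTLA-4 values. Selplg, the selectin ligand PSGL-1, was at 165, 12.8 and 112 CPM against 373, 170 and 446 CPM, without overlap. Cd44, the hyaluronan receptor of activated T cells, went the other way, at 620, 281 and 559 CPM against 251, 166 and 281 CPM. The highest anti-PD-1 value of Cd44 and its value in replicate 2 agreed to 3 digits, so the separation is narrow, and controls at 362, 441 and 462 CPM were above every anti-PD-1 value.

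**Figure D3:**
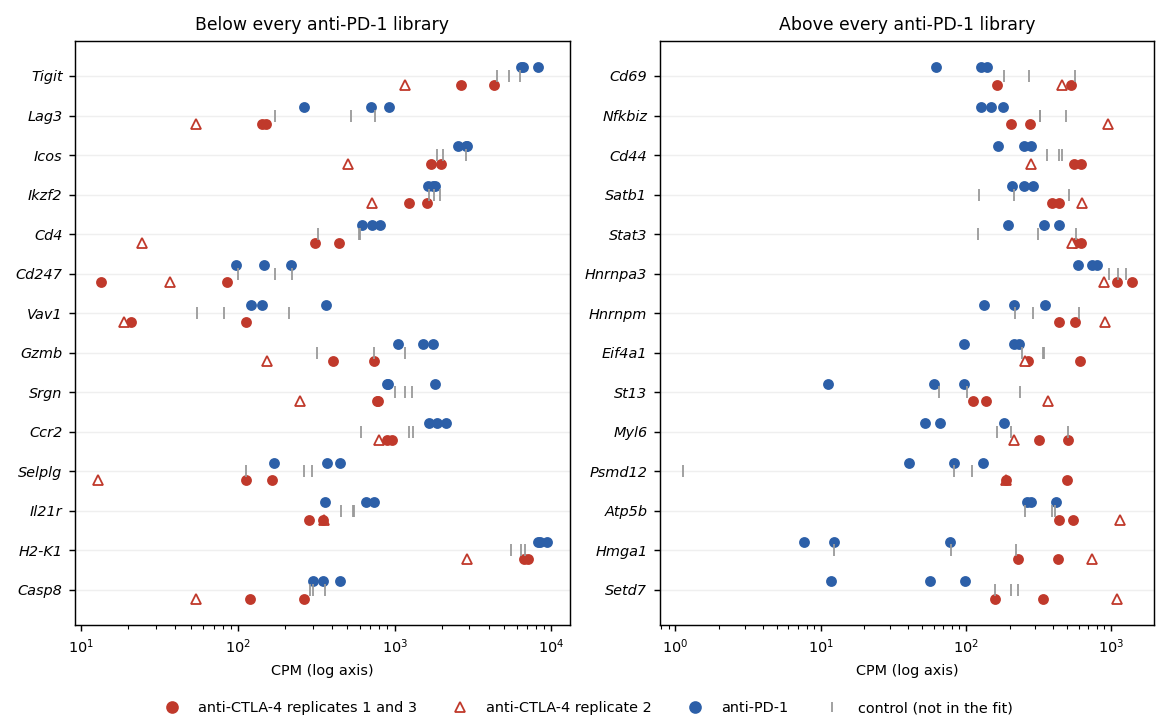
CPM (horizontal, log axis) in each library for 28 genes whose groups do not overlap: anti-PD-1 as blue points, anti-CTLA-4 as red points with replicate 2 as an open triangle, and controls, which were not in the fit, as grey ticks. In the left panel every red symbol is left of every blue one, as for Tigit at 1173 to 4296 against 6389 to 8247 CPM; in the right panel the order is the reverse.

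Activation genes were split. Cd69, an early activation and retention marker, was at 534, 457 and 165 CPM under anti-CTLA-4 and 140, 62.8 and 126 CPM under anti-PD-1, without overlap and with a difference of 1.73 (edgeR adjusted p = 0.966). Nr4a1 and Nr4a3, nuclear receptors induced by the T cell receptor, were higher in anti-CTLA-4 replicates 1 and 3 than in any anti-PD-1 mouse, while replicate 2 was among the anti-PD-1 values for Nr4a1 and below them for Nr4a3. Nr4a1 was at 559, 158 and 720 CPM against 292, 139 and 336 CPM, and Nr4a3 at 729, 54.4 and 522 CPM against 62.7, 90.1 and 250 CPM. Without replicate 2 their differences were 1.41 and 2.46. Of the 11 members detected in all 5 of those libraries, 3 were higher without overlap (Nr4a1, Nr4a3 and Cd69). On the lower side 2 were without overlap, the AP-1 subunits Jun and Junb. Over all 1962 genes the shares were 9.84% higher and 10.4% lower. Jund, an AP-1 subunit, was at 193, 24.4 and 478 CPM against 268, 438 and 459 CPM and overlapped. Of the 7 genes of this list detected throughout, 4 had a higher mean and 3 a lower one, with a median difference of 0.74; 0 were called.

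Nfkbiz, an atypical IκB protein, was at 277, 954 and 205 CPM against 181, 128 and 148 CPM, without overlap, and Nfkbia, the inhibitor IκBα, at 221, 118 and 264 CPM against 36.9, 136 and 103 CPM. Of the 5 NF-κB genes detected throughout, 4 had a higher mean, against 542 of all 1137 genes, and 0 were called. Controls of Nfkbia, at 388, 234 and 522 CPM, were above every anti-PD-1 value. Stat3, the transcription factor of IL-6 and IL-21 signalling, was at 563, 538 and 623 CPM against 346, 440 and 194 CPM, and its anti-CTLA-4 values were close together. Il21r, the IL-21 receptor, was lower, at 284, 353 and 352 CPM against 654, 359 and 738 CPM. Its nearest libraries of the 2 groups nearly touched. Satb1, a chromatin organizer of T cells, was at 391, 627 and 440 CPM against 251, 210 and 291 CPM.

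Hmga1 had the largest difference on the higher side among the 48 genes without overlap. Hmga1, a chromatin architecture protein (ENSMUSG00000046711, chromosome 17, 27556497 to 27563674), was at 433, 736 and 229 CPM under anti-CTLA-4 and 12.5, 7.74 and 77.8 CPM under anti-PD-1. The difference was 4.42, and 4.01 without replicate 2 (edgeR adjusted p = 0.205 and 0.928). Controls were at 220, 78.6 and 12.4 CPM and spanned most of the gap. Setd7, a lysine methyltransferase (ENSMUSG00000037111, chromosome 3, 51515319 to 51560879), was at 160, 1099 and 342 CPM against 56.7, 11.8 and 99.0 CPM, with controls at 159, 227 and 205 CPM. Ndrg1, a stress-responsive gene, was at 848, 817 and 203 CPM against 191, 59.9 and 65.1 CPM. Xpo6, the nuclear exporter of actin, was at 247, 1651 and 420 CPM against 79.0, 136 and 113 CPM. Replicate 2 was the highest library for Hmga1, Setd7 and Xpo6, but the other 2 mice were also above every anti-PD-1 mouse.

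On the lower side, Mafg, a small MAF transcription factor, was at 6.56, 28.8 and 33.1 CPM against 333, 149 and 254 CPM, a difference of -3.66, or -3.98 without replicate 2 (edgeR adjusted p = 0.9999). Ccnd1, cyclin D1, was at 43.4, 7.96 and 14.9 CPM against 119, 496 and 52.8 CPM. Neb, annotated as the muscle protein nebulin, was at 418, 244 and 640 CPM against 2049, 935 and 1772 CPM, and limma voom called it without replicate 2 (adjusted p = 0.000895). Casp8, the initiator caspase of death receptors, was at 120, 54.5 and 264 CPM against 351, 302 and 448 CPM. In each of these genes 2 or 3 of the controls were above every anti-CTLA-4 value.

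MHC class I genes had slightly lower means with anti-CTLA-4. H2-K1, a class I heavy chain, was at 7127, 2904 and 6702 CPM against 8480, 8274 and 9394 CPM, a difference of -0.75, or -0.33 without replicate 2. The groups did not overlap, and limma voom called the gene over 6 libraries (adjusted p = 1.87e-12) where edgeR gave an adjusted p of 0.9999. Without replicate 2, limma voom did not call it (log2 fold change -0.18, adjusted p = 0.914). Class I heavy chain genes are similar in sequence to each other, so how their reads were assigned is uncertain. Of the 11 class I pathway genes detected throughout, 10 had a lower mean on CPM, with a median difference of -0.53; their fitted median was above 0 with TMM (0.28), DESeq2 (2.12) and RLE (2.70), and below the median of all 1137 genes under each scaling. Without replicate 2, 8 of 14 had a lower mean, against 945 of 1962 genes.

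Chaperone and translation genes were on the other side. Of 14 heat shock and chaperone genes, 12 had a higher mean with anti-CTLA-4 (median difference 0.58), and of 16 translation factors, 12 (median 0.37), against 542 of all 1137 genes. In either list 0 were called. The median of all 1137 genes was itself above 0 under every fitted scaling, and both list medians were above it under each scaling. Without replicate 2 the counts were 14 of 17 and 14 of 19, against 1017 of 1962 genes detected in all 5 libraries. St13, a cochaperone of HSP70, was the chaperone without overlap, at 112, 368 and 138 CPM against 11.3, 60.2 and 97.6 CPM. Hspa8, the constitutive HSP70, was at 1362, 1530 and 570 CPM against 546, 974 and 847 CPM and overlapped. Eif4a1, the RNA helicase of translation initiation, was at 268, 254 and 610 CPM against 97.8, 214 and 232 CPM, without overlap.

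RNA-binding genes were split. Of 19 detected, 12 had a higher mean (median difference 0.48). Hnrnpm was at 562, 909 and 441 CPM against 134, 353 and 213 CPM and Hnrnpa3 at 1394, 902 and 1092 CPM against 595, 746 and 805 CPM. Both are packaging proteins of nascent RNA and did not overlap. Rbm39, a splicing factor, was the opposite, at 687, 578 and 625 CPM against 870, 1160 and 890 CPM. Its values were close together within each group, and its difference was -0.62, or -0.56 without replicate 2. Interferon stimulated genes (median -0.10, 9 genes), glycolysis (-0.06, 9 genes) and actin cytoskeleton genes (-0.01, 24 genes) had medians near that of all genes on CPM. As fitted with RLE or DESeq2 factors, the median of each of these 3 lists was above 2, like that of all genes.

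**Figure D4:**
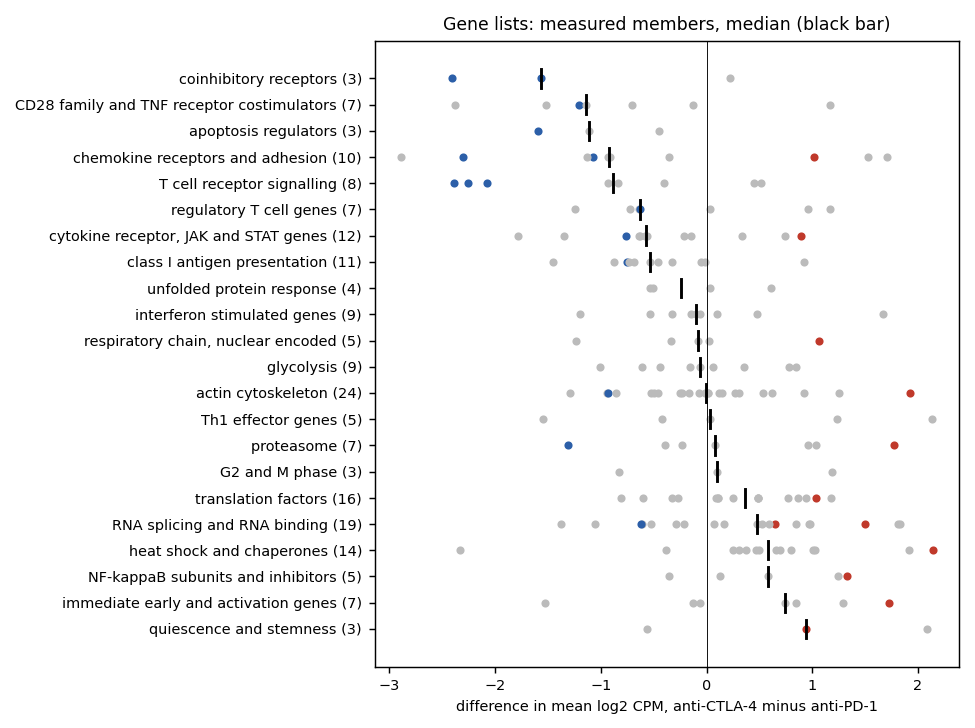
Difference in mean log2 CPM (anti-CTLA-4 minus anti-PD-1, horizontal axis) of every member detected in all 6 libraries, for each list with at least 3 such members (number in brackets). Red and blue points are genes whose groups do not overlap, grey the others, and the black bar is the list's median. Inhibitory receptors, costimulators and T cell receptor signalling have medians below 0 on CPM (their fitted medians turn above 0 with RLE and DESeq2 factors), and chaperones and translation factors have medians above 0.

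With anti-CTLA-4 replicate 2 left out, 7341 genes were tested, 0 were higher and 5 were lower with anti-CTLA-4 (0.0681%), against 109 and 197 at an unadjusted p under 0.05. Beside Nkg7, these were Galnt6, Trnt1, Cnep1r1 and Tmem167. Galnt6, which starts mucin-type O-glycans, was at 0.263 and 0.184 CPM in anti-CTLA-4 replicates 1 and 3 (0.169 in replicate 2) and at 285, 143 and 322 CPM under anti-PD-1 (edgeR adjusted p = 0.0268). Trnt1, which adds CCA ends to tRNA, was at 0.0985 and 0.0918 CPM (0.0281 in replicate 2) against 93.8, 423 and 80.9 CPM (edgeR adjusted p = 0.0268). For both genes all 3 controls were well above the anti-CTLA-4 values, at 85.8 to 143 CPM for Galnt6 and 13.8 to 61.6 CPM for Trnt1. Cnep1r1 (edgeR adjusted p = 0.0457) was at 25.9, 514 and 0.0584 CPM under anti-PD-1, so that its groups overlapped. Tmem167 (edgeR adjusted p = 0.0457) was at 343 CPM in the replicate left out.

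All 5 of these genes were at or below 0.263 CPM in anti-CTLA-4 replicates 1 and 3, so the calls are of genes nearly without counts there. Over all genes, 49 had at most 3 counts in each anti-CTLA-4 library and at least 5 CPM in each anti-PD-1 library, and 8 were the reverse. Without replicate 2 the numbers were 67 and 82. Among the 1962 genes detected in all 5 libraries, 193 were higher without overlap (9.84%) and 205 lower (10.4%), and 945 had a lower mean. The larger percentages come with fewer libraries, which separate more easily, and random order alone would give similar shares.

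Limma voom on the 5 libraries called 9 genes of the 1137: Tigit was not among them, and Ccr2, Gzmb, Icos, Neb and Wnk1 were lower and Npm1, Mbnl1, Polr2a and Prrc2c higher. Wnk1, a kinase of ion transport, was at 1642, 985 and 1350 CPM against 3053, 2465 and 3350 CPM, with controls at 2402, 2128 and 2677 CPM, all above the anti-CTLA-4 values. Npm1, the nucleolar protein nucleophosmin, was at 1785, 790 and 1004 CPM against 701, 409 and 224 CPM. Neither gene overlapped over all 6 libraries, and edgeR called neither (adjusted p = 0.9999 and 0.794).

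**Figure D5:**
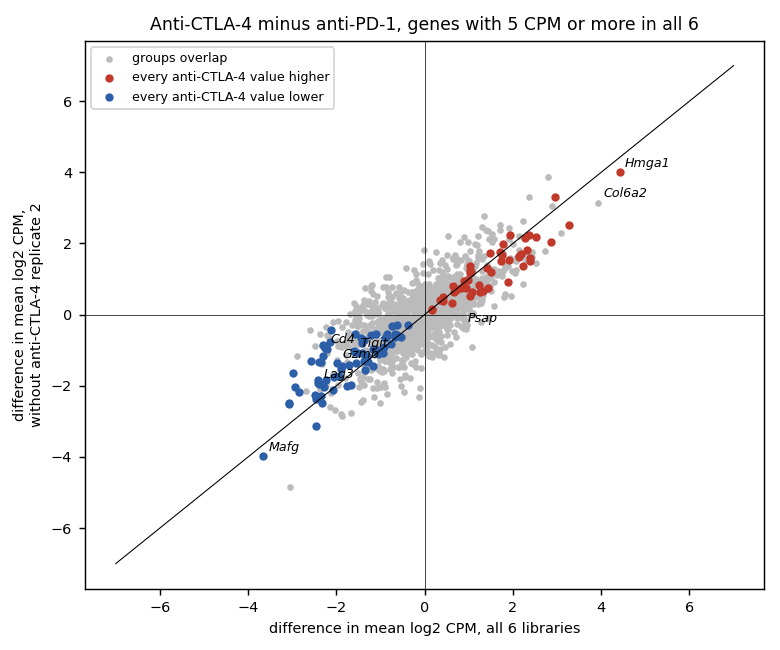
Difference in mean log2 CPM (anti-CTLA-4 minus anti-PD-1) of the 1137 genes with all 6 libraries (horizontal axis) and without anti-CTLA-4 replicate 2 (vertical axis); colours are as in the plot of difference by level, and the diagonal marks equal values. Mafg and Hmga1 lie near the diagonal, and Psap moves from 0.86 to -0.36.

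The control mice, which entered no test here, were nearer to anti-PD-1 for most genes that were lower with anti-CTLA-4. For 53 of the 67, the control median was on the anti-PD-1 side of the midpoint between the groups, and for 27 all 3 controls were above every anti-CTLA-4 value. For 17 all 3 controls were below every anti-PD-1 value. A gene can count in both. The genes were picked for low anti-CTLA-4 values, and replicate 2 was the most extreme library in 45 of the 67. The midpoint depends on that library, and these counts were not repeated without it. Of the 48 genes higher with anti-CTLA-4, 26 had the control median on the anti-PD-1 side and 22 on the anti-CTLA-4 side. All 3 controls were below every anti-CTLA-4 value in 16 of the 48 and above every anti-PD-1 value in 11. Ly6a, an interferon-responsive surface protein that was named after its values were seen, was at 607, 329 and 749 CPM with anti-CTLA-4, at 1354, 1579 and 1366 CPM under anti-PD-1 and at 1143, 746 and 1220 CPM in controls.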

How the data were processed

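The authors deposited a table of unnormalized counts by gene symbol. The submitters' processing notes name TopHat2, HTSeq, DESeq2 and GRCm38; versions, annotation and strand setting are not stated, so overlapping and antisense genes are uncertain. Per the labels' protocols, RNA was amplified with a single-cell kit, since each mouse gave little. The 5 HTSeq summary entries were left out. Gene positions are from GENCODE mouse release M21, matched by symbol.

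Genes passing filterByExpr (minimum count 10) were tested over the 6 libraries with edgeR 4.0.16 (R 4.3.3; robust quasi-likelihood, TMM factors, group as the only term, Benjamini-Hochberg adjustment, threshold 0.05). Standard errors were taken as the fitted change divided by the root of its F statistic. Differences in mean log2 CPM add no pseudocount for genes detected throughout. The biological coefficient of variation was 1.76, and 1.81 without replicate 2. A count of 3 was taken as the limit of detection, for counting error only.

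Named genes were those called, up to 12 per direction without overlap on CPM and TMM-scaled CPM, up to 5 per direction with the smallest p, up to 4 members of each list by mean CPM, any list member without overlap, and always Cd4, Icos, Ctla4, Pdcd1, Foxp3 and Il2ra. Members, lists and tests were chosen with earlier results of these data known. Wnk1, Npm1, Mbnl1, Polr2a, Prrc2c, Jun, Junb, Cd5, Cd8b1 and Klrc1 and the genes called without replicate 2 were named after their values were seen. Alternatives used DESeq2 1.42.0, limma 3.58.1, other scalings and filters, all 9 libraries, the replicate number as a block, and each replicate left out. The edgeR fit was run on simulated counts at a low and a high dispersion. A minimum recovery was required only for the larger fold change at the low dispersion. The simulation therefore does not show the power of the test at the variation of these data.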

Additional observations from a re-analysis of the deposited data

How the results depend on the processing

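Counts of called genes are given as higher and lower with anti-CTLA-4, over all tested genes, where the main fit gave 30 and 1, and then over the 1137 genes detected throughout, where it gave 2 and 0. DESeq2 called 247 and 446, with 0 and 0 among the 1137. RLE factors called 0 and 0, as did a fit of the 1137 genes alone. TMM factors over the 1137 genes called 8 and 1, then 0 and 1. Library totals called 7 and 1, then 0 and 1. Fitting all 9 libraries called 64 and 1, then 4 and 0, and no filter called 72 and 0, then 1 and 0. Leaving out receptor, mitochondrial and ribosomal protein genes called 29 and 0, and limma voom 2 and 3, then 0 and 3. At a threshold of 0.10 the counts were 39 and 1. The cause of these differences was not tested. Leaving out 1 library at a time gave 0 to 54 higher and 0 to 5 lower over all tested genes, and 0 to 6 higher among the 1137; the 0 higher came without anti-CTLA-4 replicate 2 and the 54 without replicate 3. Genes without overlap numbered 92 to 117 higher and 113 to 138 lower when 1 library was left out, where fewer values separate more easily, and a minimum of 50 CPM in all 6 left 35 lower. Psap was reversed by limma voom, at -0.23.

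Alternatives for the fit without replicate 2, chosen after seeing the data, gave 984 higher and 786 lower with DESeq2, and 20 and 5 with limma voom, where the fit itself gave 0 and 5. Library totals and no filter each gave 3 lower, and genes at 5 CPM in all 5 libraries alone gave 0 lower.

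The replicate numbers do not pair the mice: deviations of same-numbered libraries correlated at 0.00066, 0.017 and 0.010 over 5795 genes. With the replicate number as a block, 7 genes were called higher and 0 lower, and 3 of the higher ones were among the 1137 (Col6a2, mt-Cytb and mt-Nd5). Library totals were 25530333 gene counts or more; whether depth or the number of mice limits the calls was not tested.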

Other observations

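The 2 mitochondrial ribosomal RNAs, named after their values were seen, were higher on CPM with anti-CTLA-4 in every library by a small amount. The values of mt-Rnr1 were 47958, 46773 and 44412 CPM with anti-CTLA-4 and 40100, 41672 and 42825 CPM with anti-PD-1, and those of mt-Rnr2 were 18452, 19306 and 17382 CPM against 15820, 16279 and 16587 CPM. The differences in mean log2 CPM were 0.16 and 0.18 (edgeR adjusted p = 0.205 and 0.480), and the controls of both genes covered the ranges of both groups.

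Ddit4, Odc1 and Runx2 were also without overlap on the lower side and were named after their values were seen. Ddit4, a stress-induced inhibitor of mTORC1, was at 350, 452 and 479 CPM under anti-CTLA-4 and 1157, 796 and 1179 CPM under anti-PD-1, with controls at 498, 634 and 781 CPM. Odc1, the rate-limiting enzyme of polyamine synthesis, was at 986, 703 and 1351 CPM against 2003, 1689 and 1596 CPM. Runx2, a RUNX family transcription factor, was at 530, 415 and 500 CPM against 937, 712 and 651 CPM. None of the 3 was called by edgeR (adjusted p = 0.9999 for each).

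Nos2, the inducible nitric oxide synthase of myeloid cells, was among the 30 genes called higher, at 146, 1287 and 95.0 CPM under anti-CTLA-4 and 0.313, 41.5 and 31.5 CPM under anti-PD-1 (edgeR adjusted p = 0.0256). It was highest in replicate 2, where the macrophage and monocyte marker sum was also highest, and the other 2 mice were above every anti-PD-1 mouse. Without replicate 2 the adjusted p was 0.9999.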
